A study of Mus musculus with 12 samples.

Results

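The IL-6 family genes described here are Il6, Il6ra, Il6st, Socs3, Stat3, Osm, Osmr, Lif and Il11, that is 9 of the 18193 genes that the annotation names singly on the array. All probe sets annotated with exactly 1 of these symbols were taken, which gave 21 of the 45101 probe sets. A probe set is a group of short oligonucleotides that are read together as 1 value, and which transcripts each of them binds was not examined. All 21 passed the lower limit of measurement used here (a log2 signal of 4.37, the 20th percentile) in 1 or more arrays. Il6 met this condition through the groups in which it was higher, since all 3 WT-Air arrays lay under that limit.

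The lungs came from male mice of 6 to 8 weeks. Nfkb1-/- mice (Nfkb1KO) lack p50/p105, 1 of the subunits of the transcription factor NF-κB, in every cell and throughout life. The wild-type mice (WT, Nfkb1+/+) were purchased B6129PF2/J mice, a strain matched to but not bred with the mutants, so that the deletion and other differences between the strains cannot be told apart. Mice of both genotypes breathed either filtered air or 0.3 ppm ozone (O3), an oxidant air pollutant, continuously for 48 h, and the air and O3 mice were held in separate chambers. RNA from the left lung of 3 mice in each of the 4 groups (WT-Air, WT-O3, Nfkb1KO-Air and Nfkb1KO-O3) was hybridised to 1 array per mouse. The comparisons ask how the family responded to O3 in each genotype, whether its level depended on Nfkb1, and whether the response to O3 did.

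All 8 lung markers examined, among them the surfactant gene Sftpc and the club cell gene Scgb1a1, lay above the array median in every group. Nfkb1KO-Air replicate 1 stood apart, with a median signal of 180.14 against 99.14 to 121.16 in the other arrays. Skeletal muscle transcripts varied between lung pieces, with a summed signal of 1396 to 38595 in WT-Air. The labelling controls added to the RNA had mean log2 signals of 8.54 to 9.10 in air and 8.03 to 8.75 in O3 arrays, and the part of this in the O3 differences below was not tested. No probe set was annotated to Nfkb1 alone, so the level of the targeted gene could not serve as a check of the genotypes and is not analysed here.

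IL-6 family cytokines signal through a shared receptor chain, gp130, which Il6st encodes. IL-6 binds the IL-6 receptor (Il6ra), in its membrane or soluble form, and the pair engages gp130. Oncostatin M (Osm) uses gp130 with the oncostatin M receptor (Osmr), leukemia inhibitory factor (Lif) uses gp130 with its own receptor chain, and IL-11 (Il11) uses a receptor of its own with gp130. The joined receptors activate JAK kinases and the transcription factor STAT3, which turns on acute-phase and survival genes as well as Socs3, an inhibitor that binds gp130 and JAK and closes the loop. In the lung, IL-6 is made by macrophages, epithelial cells, fibroblasts and other cells, and NF-κB, AP-1 and C/EBP factors are known regulators of its promoter.

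Il6 and Socs3, the cytokine and the inhibitor with the highest called folds of O3 in the family, are shown here by the sequence before their transcription starts (RefSeq, mouse build GRCm38.p6). For Il6 the 250 bases before the start, at chr5:30012864-30013113 on the plus strand, are printed 5′ to 3′ with capitals marking, in order, an AP-1, a C/EBP and an NF-κB motif match. They began 249, 128 and 44 bases before the start. For Socs3 a stretch of 29 bases on the minus strand, chr11:117969502-117969530, is printed with capitals marking a STAT motif match that began 154 bases before the start.
Il6: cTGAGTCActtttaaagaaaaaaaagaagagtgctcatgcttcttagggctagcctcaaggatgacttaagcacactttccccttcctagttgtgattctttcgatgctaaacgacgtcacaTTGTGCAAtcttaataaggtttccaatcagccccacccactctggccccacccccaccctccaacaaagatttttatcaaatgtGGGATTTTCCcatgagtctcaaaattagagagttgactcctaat
Socs3: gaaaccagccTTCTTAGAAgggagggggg

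Windows of 250 bases were searched on both strands for 4 motifs: the NF-κB consensus, the STAT motif TTCNNNGAA, the AP-1 motif TGANTCA and the C/EBP motif TTNNGNAA. Of all 32851 windows, 5% held the NF-κB consensus, 7.02% the STAT motif, 6.75% the AP-1 motif and 36.8% the C/EBP motif. A window was found for 8 of the 9 genes (Osm is named only). Among these 8, Il6 held the NF-κB consensus and Socs3 the STAT motif, 3 genes (Il6, Lif and Il11) held an AP-1 match and 3 (Il6, Il6ra and Stat3) a C/EBP match. A match describes the letters in the window and is not a shown binding site.

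After O3, probe sets of Il6, Socs3 and Osmr rose in both genotypes. In WT mice 7 of the 21 probe sets were higher in O3 than in air and 0 were lower (limma, adjusted p under 0.05), against 3.23% of all 42559 probe sets tested in either direction and 2.15% of them higher. In Nfkb1KO mice 6 of 21 were higher and 0 lower, against 3.59% in either direction and 2.23% higher. The calls covered Il6, Il6ra, Socs3 and Osmr in WT mice and Il6, Il6st, Socs3 and Osmr in Nfkb1KO mice. The median log2 difference over the 21 probe sets was 0.36 in WT and 0.42 in Nfkb1KO mice, where the median of all probe sets was -0.00281 and -0.00213. O3 and air arrays did not overlap, with O3 higher, in 12 of 21 probe sets in each genotype, a pattern that 13% of all probe sets showed in WT and 12.3% in Nfkb1KO mice. The family was chosen with earlier results of these data known, so these counts are a description and no test of the family. In whole lung RNA, more RNA per cell and more cells that carry the RNA cannot be told apart.

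**Figure D1:**
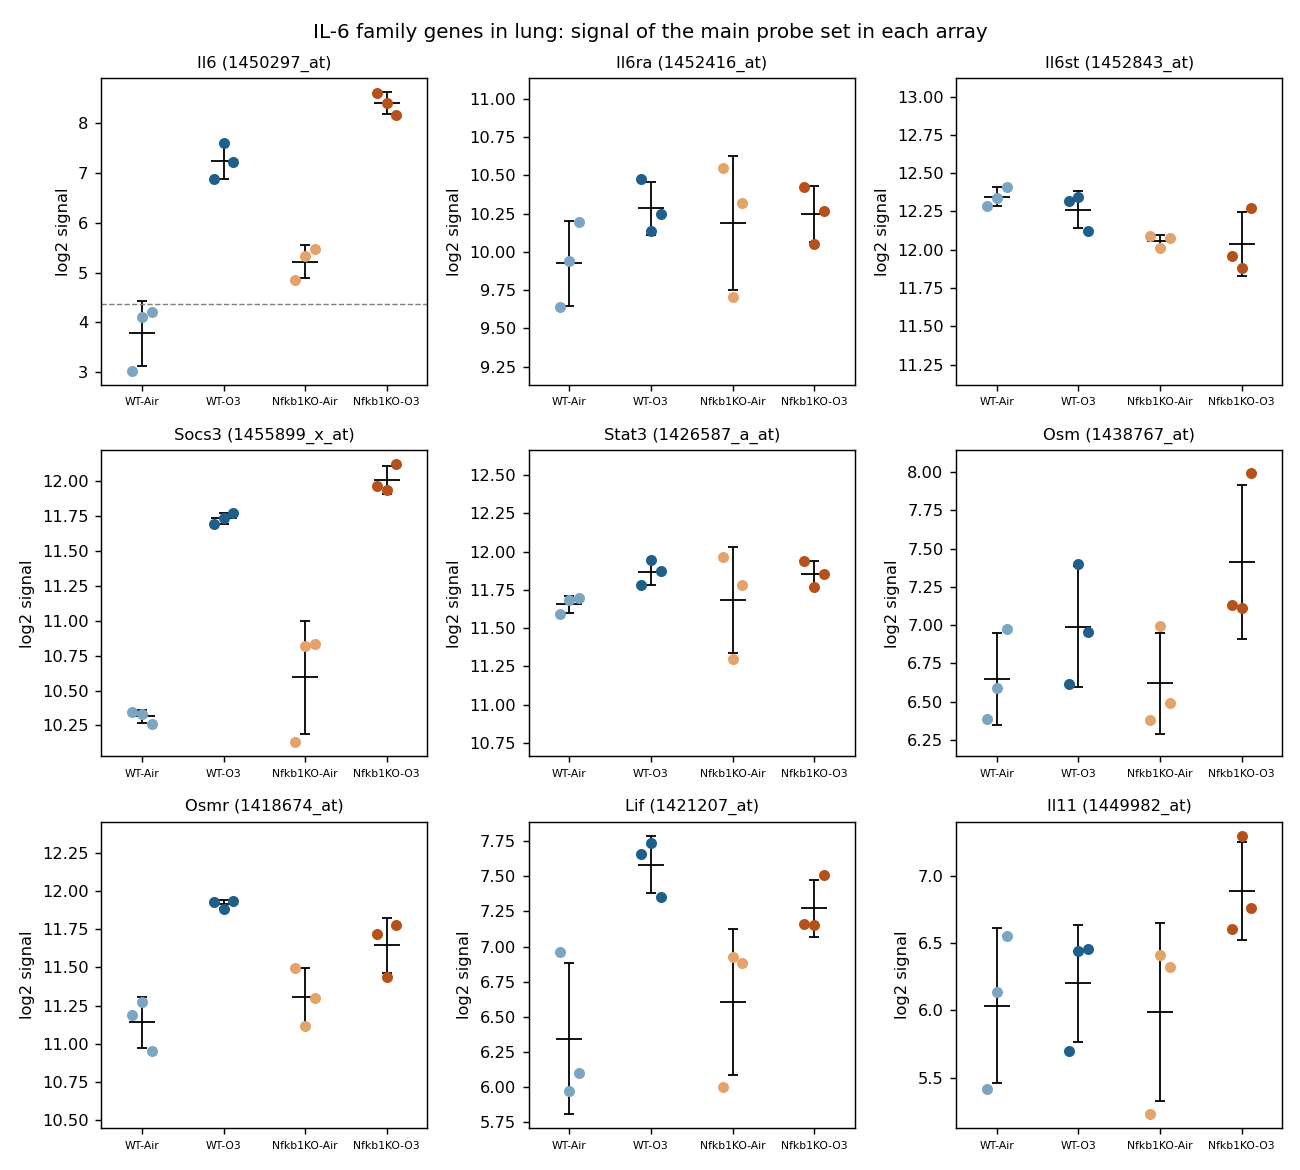
Log2 signal (vertical axes) of the main probe set of each of the 9 genes in the 12 arrays, by group; points are arrays, the horizontal mark is the group mean and bars are 1 SD (n = 3), and the dashed line in the Il6 panel is the lower limit of 4.37. In the Il6 and Socs3 panels all O3 arrays lie above all air arrays of both genotypes.

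Il6 had the highest fold change with O3 in the family. Its log2 signals (1450297_at) were 3.03, 4.11 and 4.21 in WT-Air and 6.88, 7.61 and 7.23 in WT-O3. In Nfkb1KO-Air they were 4.85, 5.34 and 5.48, and in Nfkb1KO-O3 8.62, 8.41 and 8.17. The 4 groups followed each other without overlap, in the order WT-Air, Nfkb1KO-Air, WT-O3, Nfkb1KO-O3. For comparison, 44 probe sets of olfactory receptors, genes that lung is not known to use, had a 95th percentile of 6.22 on the log2 scale, and all Il6 values in air lay under it while all values after O3 lay above it. On the linear scale as deposited, the signals lay between 6.79 and 20.29 in WT-Air, 38.13 and 60.53 in Nfkb1KO-Air, 108.21 and 182.9 in WT-O3, and 273.54 and 384.09 in Nfkb1KO-O3. Since every WT-Air value lay under the lower limit, the O3 change in WT mice is given as at least 7.31-fold, with values under the limit raised to it (fitted log2 difference 3.45, SE 0.37, limma adjusted p = 0.000537). In Nfkb1KO mice the fitted change was 9.04-fold (log2 3.18, SE 0.37, limma adjusted p = 0.00126). The size of either fold depends on the level taken as background: the mean after O3 was 2.03-fold above the olfactory receptor level in WT mice and 4.54-fold above it in Nfkb1KO mice. Both calls held under every alternative processing.

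The inhibitor Socs3 was measured by 3 probe sets, and each rose with O3 in each genotype. Its main probe set (1455899_x_at, the one with the highest mean signal) had log2 signals of 10.35, 10.33 and 10.26 in WT-Air and of 11.69, 11.73 and 11.77 in WT-O3. The values were 10.13, 10.82 and 10.84 in Nfkb1KO-Air and 11.97, 11.93 and 12.12 in Nfkb1KO-O3. The spread was small except in Nfkb1KO-Air, where replicate 1, the array that stood apart, was the lowest. O3 raised this signal 2.67-fold in WT mice (log2 1.42, SE 0.15, limma adjusted p = 0.000537) and 2.66-fold in Nfkb1KO mice (log2 1.41, SE 0.15, limma adjusted p = 0.00109).

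The other Socs3 probe sets gave the same direction. The signals of 1416576_at were 8.73, 8.62 and 8.54 in WT-Air, 10.10, 9.92 and 10.07 in WT-O3, 8.28, 8.75 and 8.96 in Nfkb1KO-Air and 10.39, 10.31 and 10.39 in Nfkb1KO-O3. Its O3 change was 2.64-fold in WT mice (limma adjusted p = 0.000543) and 3.24-fold in Nfkb1KO mice (limma adjusted p = 0.000248). For 1456212_x_at the change was 1.87-fold in WT mice (limma adjusted p = 0.00108) and 1.89-fold in Nfkb1KO mice (limma adjusted p = 0.00132). The WT call of 1456212_x_at was lost when arrays were centred on their medians in place of quantile normalisation (limma adjusted p = 0.0975), whereas the other 5 Socs3 calls held under every alternative.

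**Figure D2:**
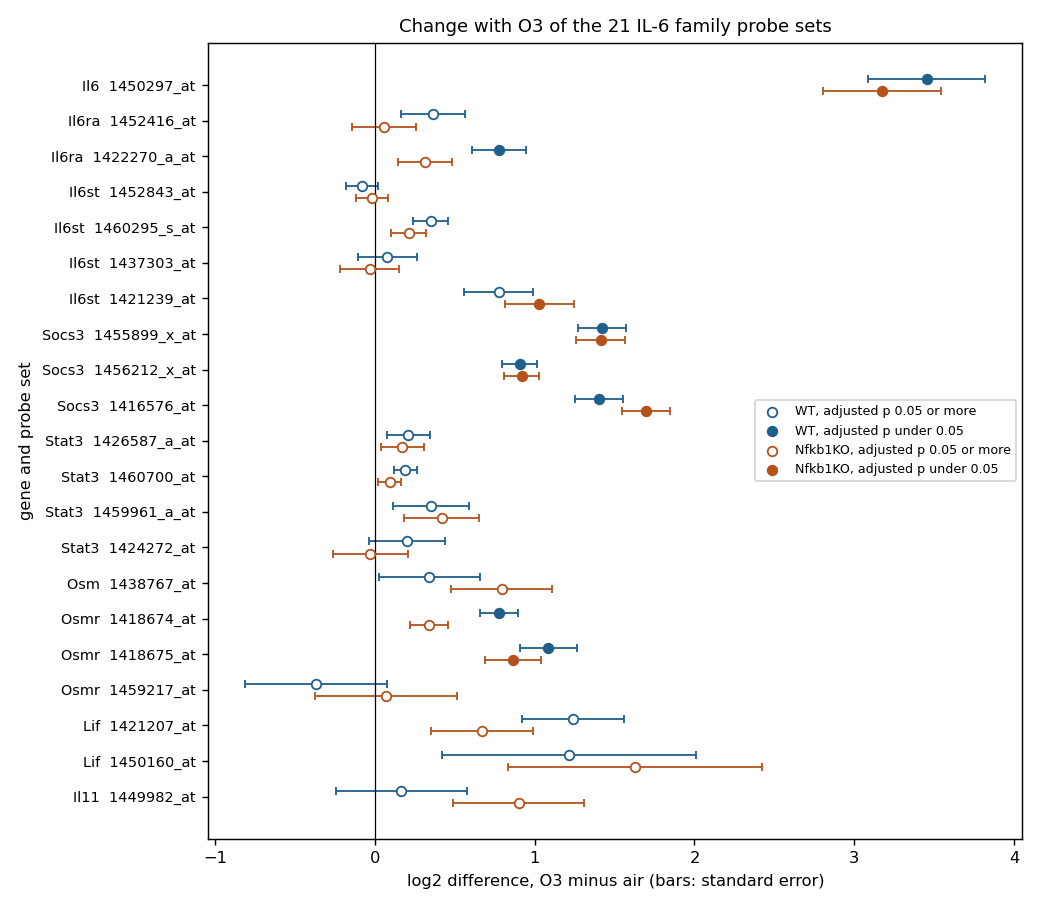
Log2 difference between O3 and air (horizontal axis) for the 21 probe sets (vertical axis), in WT and Nfkb1KO mice; bars are standard errors of the fit and filled points passed a limma adjusted p of 0.05. Il6 lies at 3.45 and 3.18, the Socs3 probe sets lie between 0.91 and 1.70, and the Stat3 probe sets between -0.03 and 0.42 with open points.

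Among the other ligands, no call was made. Lif, a cytokine of stem cell maintenance and inflammation, had log2 signals (1421207_at) of 6.96, 5.97 and 6.10 in WT-Air and 7.66, 7.74 and 7.35 in WT-O3, and of 6.0, 6.92 and 6.88 in Nfkb1KO-Air and 7.16, 7.15 and 7.51 in Nfkb1KO-O3. O3 and air arrays did not overlap in either genotype. WT-Air replicates 2 and 3 and Nfkb1KO-Air replicate 1 lay under the olfactory receptor level of 6.22. The log2 difference was 1.24 in WT mice (SE 0.32, limma adjusted p = 0.0537) and 0.67 in Nfkb1KO mice (SE 0.32, limma adjusted p = 0.29). The WT value passed the threshold without Nfkb1KO-Air replicate 1 (limma adjusted p = 0.0201) and without WT-Air replicate 1 (limma adjusted p = 0.0322). It also passed without quantile normalisation, with array weights, with a stricter filter and with 1 probe set per gene (limma adjusted p between 0.0223 and 0.0451). The second Lif probe set (1450160_at) ranged from 2.37 to 5.99 and lay under the lower limit in 3 arrays, all of air groups.

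Osm, a cytokine made by myeloid cells and T cells, had log2 signals of 6.38 to 6.97 in WT-Air, 6.62 to 7.40 in WT-O3, 6.38 to 7.0 in Nfkb1KO-Air and 7.11 to 8.0 in Nfkb1KO-O3. Its O3 difference was 0.34 in WT mice (SE 0.31, limma adjusted p = 0.68) and 0.79 in Nfkb1KO mice (SE 0.31, limma adjusted p = 0.2). Il11, a cytokine of stromal and epithelial cells, ranged from 5.42 to 6.55 in WT-Air, 5.70 to 6.46 in WT-O3, 5.23 to 6.41 in Nfkb1KO-Air and 6.60 to 7.29 in Nfkb1KO-O3. Its means in WT-Air (6.03), WT-O3 (6.20) and Nfkb1KO-Air (5.99) lay under the olfactory receptor level of 6.22. The Il11 difference was 0.16 in WT mice (SE 0.41, limma adjusted p = 0.91) and 0.90 in Nfkb1KO mice (SE 0.41, limma adjusted p = 0.27). For both cytokines the Nfkb1KO-O3 arrays lay above all Nfkb1KO-Air arrays, whereas WT-O3 and WT-Air arrays overlapped. The difference between the genotypes in the O3 change was 0.45 for Osm (95% interval -0.51 to 1.41) and 0.73 for Il11 (95% interval -0.52 to 1.99), neither of them called.

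The receptor Osmr rose with O3. Its main probe set (1418674_at) had log2 signals of 11.19, 11.27 and 10.96 in WT-Air, 11.93, 11.88 and 11.93 in WT-O3, 11.49, 11.11 and 11.30 in Nfkb1KO-Air and 11.72, 11.44 and 11.77 in Nfkb1KO-O3. The O3 arrays lay above the air arrays in WT mice, whereas in Nfkb1KO mice the ranges overlapped. The rise was 1.71-fold in WT mice (log2 0.78, SE 0.12, limma adjusted p = 0.00453), and the Nfkb1KO difference was 0.34 (SE 0.12, limma adjusted p = 0.14). With arrays centred on their medians the differences were 0.86 and 0.79, or 0.83 and 0.63 relative to the median of all probe sets. The Nfkb1KO difference was called with array weights (limma adjusted p = 0.0411). The WT call was lost with arrays centred on their medians (limma adjusted p = 0.113) and without the trend in the spread (limma adjusted p = 0.0556). With the Osmr probe sets averaged, the WT difference was not called either (limma adjusted p = 0.176). The genotype by O3 difference, the change in Nfkb1KO minus that in WT mice, was -0.44 (95% interval -0.80 to -0.07), with an unadjusted p of 0.0221 and a limma adjusted p of 0.93. Median centring gave -0.07 and moved the median interaction of all probe sets to 0.17. Relative to that median the Osmr value was -0.24.

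A second Osmr probe set (1418675_at) was called in both genotypes. It had log2 signals of 7.29, 7.62 and 7.08 in WT-Air, 8.40, 8.53 and 8.31 in WT-O3, 7.30, 7.38 and 7.49 in Nfkb1KO-Air and 8.21, 8.14 and 8.41 in Nfkb1KO-O3. All O3 arrays exceeded all air arrays. The rise was 2.12-fold in WT mice (limma adjusted p = 0.00633) and 1.82-fold in Nfkb1KO mice (limma adjusted p = 0.019). The Nfkb1KO call was lost without Nfkb1KO-O3 replicate 1 (limma adjusted p = 0.0701) or replicate 3 (limma adjusted p = 0.0732). It was also lost without quantile normalisation (limma adjusted p = 0.071), without the trend (limma adjusted p = 0.0501) and with only the groups compared (limma adjusted p = 0.077). The third (1459217_at) ranged from 4.53 to 5.75 with no call, all under the olfactory receptor level of 6.22.

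Il6ra, the receptor that binds IL-6, showed a call for 1 of its 2 probe sets. The log2 signals of 1422270_a_at were 7.86, 8.22 and 8.10 in WT-Air, 8.92, 8.75 and 8.82 in WT-O3, 8.82, 8.20 and 8.37 in Nfkb1KO-Air and 8.88, 8.76 and 8.69 in Nfkb1KO-O3. WT-O3 lay above WT-Air, while Nfkb1KO-Air replicate 1 overlapped with the Nfkb1KO-O3 arrays. The rise was 1.71-fold in WT mice (log2 0.77, SE 0.17, limma adjusted p = 0.0271) and the Nfkb1KO difference was 0.31 (SE 0.17, limma adjusted p = 0.36). The WT call was lost when any single WT-O3 array, WT-Air replicate 1 or WT-Air replicate 3 was left out (limma adjusted p between 0.0735 and 0.105). It was also lost with arrays centred on their medians (limma adjusted p = 0.0693) and without the trend (limma adjusted p = 0.0847). The main probe set (1452416_at) ranged from 9.64 to 10.20 in WT-Air, 10.14 to 10.47 in WT-O3, 9.70 to 10.55 in Nfkb1KO-Air and 10.05 to 10.42 in Nfkb1KO-O3, with O3 differences of 0.36 in WT and 0.06 in Nfkb1KO mice and no call.

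The 4 probe sets of Il6st, the shared transducer, disagreed. The main one (1452843_at) had log2 signals of 12.29, 12.34 and 12.41 in WT-Air, 12.32, 12.34 and 12.12 in WT-O3, 12.09, 12.01 and 12.08 in Nfkb1KO-Air and 11.96, 11.88 and 12.27 in Nfkb1KO-O3. Its O3 difference was -0.08 (95% interval -0.30 to 0.14) in WT mice and -0.02 (95% interval -0.24 to 0.20) in Nfkb1KO mice. The latter became 0.46 under median centring, or 0.30 relative to the median of all probe sets. A weaker probe set (1421239_at) read 8.13, 8.20 and 7.90 in WT-Air, 8.80, 8.92 and 8.84 in WT-O3, 7.04, 7.63 and 8.03 in Nfkb1KO-Air and 8.80, 8.51 and 8.47 in Nfkb1KO-O3. O3 arrays exceeded air arrays in both genotypes there, by 2.04-fold in Nfkb1KO mice (log2 1.03, SE 0.22, limma adjusted p = 0.0215) and with a log2 difference of 0.77 in WT mice (SE 0.22, limma adjusted p = 0.0755). The Nfkb1KO call was lost without Nfkb1KO-O3 replicate 1 (limma adjusted p = 0.104) or replicate 2 (limma adjusted p = 0.0534). It was also lost without the trend (limma adjusted p = 0.0762) and with only the groups compared (limma adjusted p = 0.112). The WT difference was called without Nfkb1KO-Air replicate 1 (limma adjusted p = 0.0135) or replicate 3 (limma adjusted p = 0.0447). Without quantile normalisation, with array weights, with a stricter filter and with only the groups compared it was called too (limma adjusted p between 0.0211 and 0.0473). The other 2 probe sets had O3 differences of -0.03 to 0.35 and no call. Which transcripts each probe set reports was not examined.

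Stat3, the transcription factor downstream of the receptors, had 4 probe sets and 0 limma calls in any comparison, with 1 at an unadjusted p under 0.05 (1460700_at, O3 in WT, a comparison in which 15.9% of all probe sets had such a p). The main probe set (1426587_a_at) ranged from 11.59 to 11.69 in WT-Air, 11.78 to 11.95 in WT-O3, 11.30 to 11.97 in Nfkb1KO-Air and 11.77 to 11.94 in Nfkb1KO-O3. Its O3 difference was 0.21 (95% interval -0.08 to 0.50) in WT mice and 0.17 (95% interval -0.12 to 0.46) in Nfkb1KO mice. These were 0.28 and 0.65 with arrays centred on their medians, or 0.25 and 0.48 relative to the median of all probe sets, with no call. Phosphorylation, by which STAT3 is activated, is not read by an array.

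The genotypes were compared next. Of the 21 probe sets, 0 were called between Nfkb1KO-Air and WT-Air (limma; 0.183% of all probe sets), with 4 at an unadjusted p under 0.05 (9.3% of all probe sets), and 0 between Nfkb1KO-O3 and WT-O3 (0.409% of all), with 5 at an unadjusted p under 0.05 (7.69% of all). After O3 the Il6 difference was the largest of the 21, at 2.24-fold (log2 1.16, SE 0.37, 95% interval 0.37 to 1.96, limma adjusted p = 0.35), and all 3 Nfkb1KO arrays lay above all 3 WT arrays without passing the correction. In air the fitted Il6 difference was 1.44 on the log2 scale (SE 0.37, limma adjusted p = 0.21), but neither genotype exceeded the olfactory receptor level of 6.22 there, so that a difference in Il6 in air is not shown.

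Beyond Il6, the genotype differences lay between -0.51 and 0.69 on the log2 scale. After O3, the Nfkb1KO arrays lay above the WT arrays in the 3 Socs3 probe sets, by 0.27 (SE 0.15), 0.24 (SE 0.11) and 0.33 (SE 0.15) on the log2 scale, with limma adjusted p between 0.64 and 0.73. In all, groups did not overlap after O3 in 9 of the 21 probe sets, 7 with Nfkb1KO higher and 2 with WT higher, against 16.7% of all probe sets. In air this held for 3 of 21, against 12.2% of all. The 2 with WT higher after O3 were Osmr 1418674_at (log2 difference -0.27, SE 0.12) and Il6st 1421239_at (-0.26, SE 0.22). Besides Il6 and Socs3, those with Nfkb1KO higher were Stat3 1424272_at (0.25), Lif 1450160_at (0.43) and Il11 (0.69). The main Il6st probe set was lower in every Nfkb1KO-Air array than in every WT-Air array (log2 difference -0.29, SE 0.10, limma adjusted p = 0.41), and the difference was -0.60 with arrays centred on their medians. In the other Il6st probe sets the genotypes overlapped in air, with log2 differences of -0.09, -0.04 and -0.51. After O3 the Il6st differences, main probe set first, were -0.23, -0.23, -0.14 and -0.26, none called. For Socs3 in air the log2 differences were 0.28, 0.23 and 0.04, none called, and they were 0.03, -0.03 and -0.12 with arrays centred on their medians. That centring moved the median of all probe sets in air to -0.14. Relative to it the differences were -0.45 for the main Il6st probe set and 0.17, 0.12 and 0.03 for Socs3. Neutrophil markers lay higher in Nfkb1KO mice in the same comparisons: all 7 measured had a higher mean in air (median log2 difference 0.94, 1 called by limma) and after O3 (median 1.30, 2 called). Of these, Camp had means under the lower limit of 4.37 in WT-Air (3.10), Nfkb1KO-Air (3.51) and WT-O3 (3.31). Cxcr2 had such means in WT-Air (3.26) and WT-O3 (3.57). The part of the neutrophil marker differences in the Il6 and Socs3 differences was not tested.

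**Figure D3:**
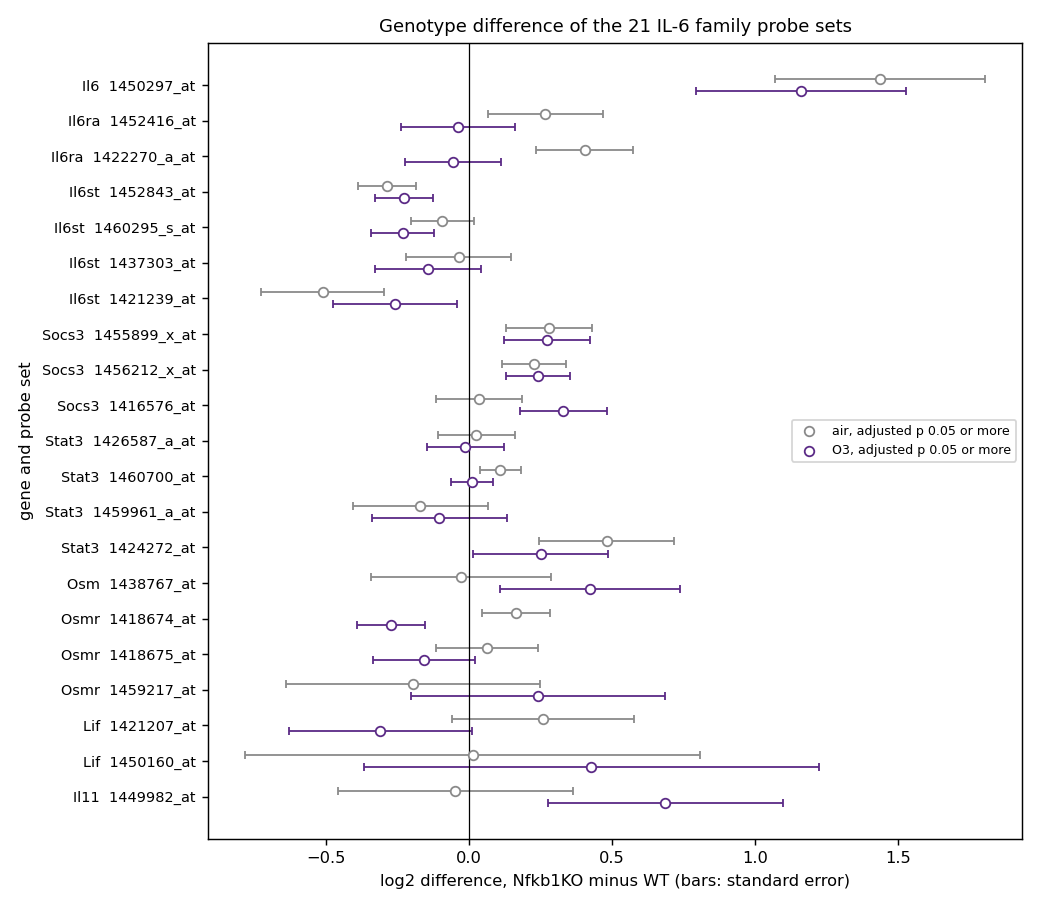
Log2 difference between Nfkb1KO and WT (horizontal axis) for the 21 probe sets (vertical axis), in air and after O3; bars are standard errors of the fit. All points are open, since none passed a limma adjusted p of 0.05, and Il6 lies farthest to the right at 1.44 in air, where all its values were under the olfactory receptor level, and 1.16 after O3.

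Whether the O3 response differed between genotypes was tested by the interaction term. Of the 21 probe sets 0 were called by limma, against 0.0188% of all probe sets, and 1 had an unadjusted p under 0.05 (Osmr 1418674_at, above), against 5.09% of all probe sets. The Il6 interaction (fitted log2 -0.28, SE 0.52, limma adjusted p = 0.96) rests on air values under the olfactory receptor level, so that neither its size nor its sign is firm. That of the main Socs3 probe set was -0.01 (SE 0.21, 95% interval -0.47 to 0.45). Under median centring it was 0.34, or 0.17 relative to the median of all probe sets, again with no call.

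The receptors, kinases and regulators of the same pathway gave few calls. Of 28 further gp130 pathway genes, 22 were measured, each by its kept probe set with the highest mean. In WT mice 0 were called with O3 by limma (4.31% of all 17569 genes were), with 3 at an unadjusted p under 0.05 (19.8% of all genes), and in Nfkb1KO mice 3 were higher and 0 lower (4.76% of all genes). These were Ptpn2 (log2 0.55, SE 0.11) and Ptpn11 (0.36, SE 0.08), phosphatases that act on JAK-STAT signalling, and Socs2 (0.39, SE 0.10), an inhibitor of cytokine receptors. With arrays centred on their medians, 1 gene of the list was called there. The median over the 22 genes was -0.01 in both genotypes, and 0.06 in WT and 0.33 in Nfkb1KO mice with that centring, which moved the median of all genes to 0.02 and 0.25. The kinases Jak1, Jak2 and Tyk2 had O3 differences between -0.25 and 0.13 with no call, and the LIF receptor Lifr had -0.08 in WT and -0.44 in Nfkb1KO mice with no call. Between the genotypes 0 genes of this list were called by limma in air, with 5 at an unadjusted p under 0.05 (11.4% of all genes), and 0 after O3, with 1 (9.37% of all genes).

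Genes that STAT3 is known to induce, together with acute-phase genes, rose in larger number. Of 28 measured genes of a list of 29, 11 were higher with O3 and 0 lower in WT mice, and 13 were higher and 1 lower in Nfkb1KO mice, against 2.53% and 2.65% of all genes higher. The median difference was 0.67 in WT and 0.59 in Nfkb1KO mice, where the median of all genes was -0.03 and -0.01. The count in WT mice was 6 with arrays centred on their medians. Many of these genes are also targets of NF-κB, AP-1 and other factors. The list was chosen with earlier results of these data known, so its counts beside those of all genes are a description and no test.

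The leading genes of that list in WT mice, in order of p, were Lcn2, an iron-binding defence protein, at 3.87-fold (limma adjusted p = 4.97e-05) and Timp1, an inhibitor of metalloproteinases, at 9.02-fold (limma adjusted p = 4.97e-05). They were followed by the acute-phase gene Saa3 at 4.44-fold, Lrg1 at 2.90-fold, the protease inhibitor Serpina3n at 3.67-fold and the adhesion molecule Icam1 at 1.64-fold. In Nfkb1KO mice the leading genes were Timp1 (6.68-fold, limma adjusted p = 0.000248), Junb (2.28-fold), Lcn2 (2.12-fold), Fos (2.87-fold), Myc (2.92-fold) and Cebpd (log2 1.5). Junb, Fos, Myc and Cebpd encode transcription factors of early responses. The cyclin Ccnd1 was the gene that fell in Nfkb1KO mice (log2 -0.63, SE 0.13), a call that was lost with arrays centred on their medians.

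Saa3 and Lrg1 were the 2 of 28 genes called between the genotypes in air (0.262% of all genes). Saa3 was 8.12-fold higher in Nfkb1KO-Air (log2 signals of 8.49, 8.19 and 8.63 in WT-Air and 11.26, 11.56 and 11.55 in Nfkb1KO-Air, limma adjusted p = 0.000374), and Lrg1 was 2.24-fold higher (limma adjusted p = 0.0373). After O3 Saa3 was the 1 gene called, at 3.78-fold (limma adjusted p = 0.00351; 0.626% of all genes). For the interaction limma called 0 genes of either list (0.0342% of all genes), with 7 of the STAT3-induced and 3 of the gp130 pathway genes at an unadjusted p under 0.05 (6.12% of all genes).

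**Figure D4:**
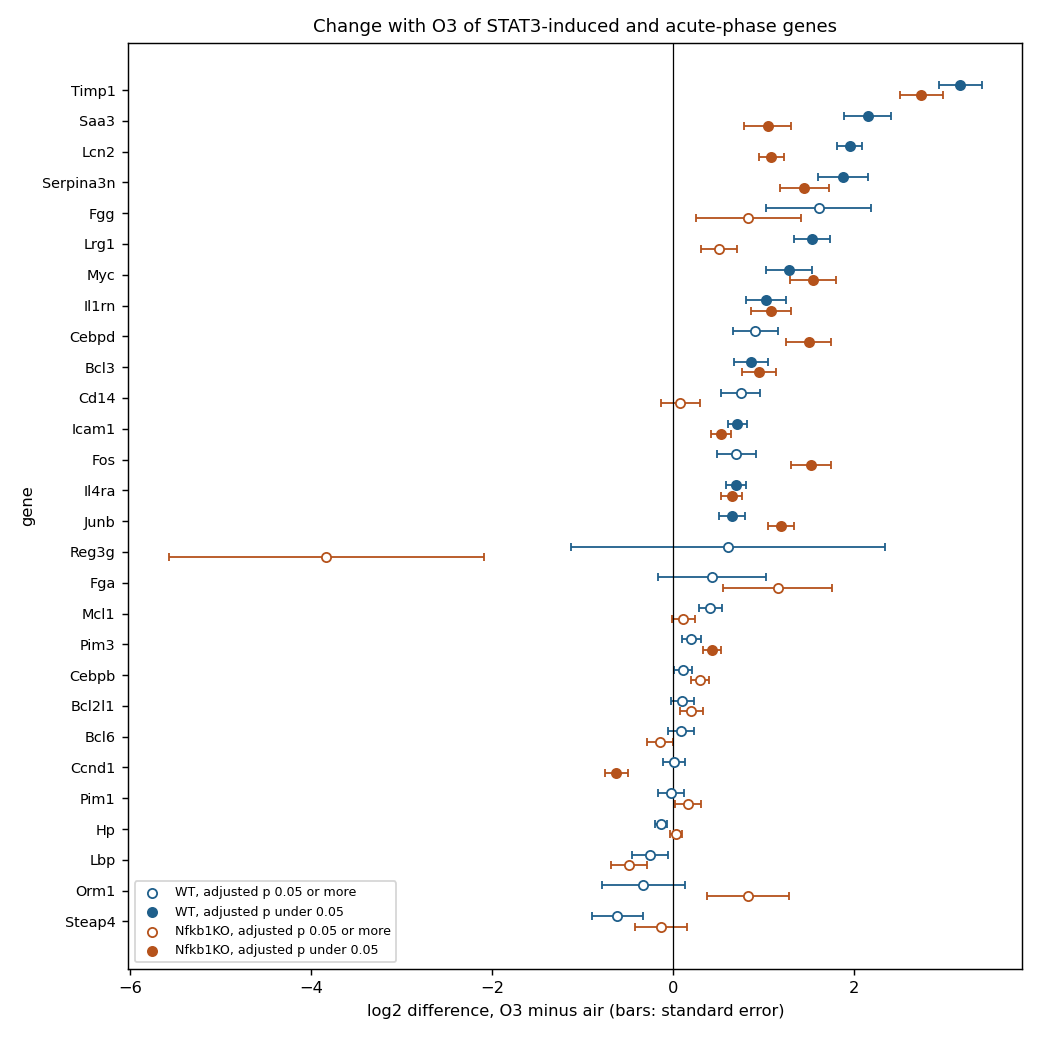
Log2 difference between O3 and air (horizontal axis) of 28 STAT3-induced and acute-phase genes (vertical axis), in WT and Nfkb1KO mice, in the order of the WT difference; bars are standard errors and filled points passed a limma adjusted p of 0.05. Timp1 lies at 3.17 in WT and 2.74 in Nfkb1KO mice, and Ccnd1, whose call was lost with arrays centred on their medians, is the filled point below 0.

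Profiles over the 12 arrays, each centred on its own mean, were compared with those of Il6 and Socs3 by the root mean square difference over all other 17568 genes, as a description. The 5 genes most like Il6 were Timp1 (0.90 log2 units), P2ry2 (0.91), Serpina3n (0.93), Ppy (0.94) and Ccl2 (0.95), where the median gene differed by 1.87. P2ry2 and Ppy had means of 3.33 and 2.99 in WT-Air, under the lower limit. The 5 genes most like Socs3 were Ch25h (0.25), Gch1 (0.26), Gadd45g (0.26), Mat1a (0.26) and Lcn2 (0.27), against a median of 0.84.

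Cell type markers moved with O3 as follows. The summed signal of 8 macrophage markers lay between 18763 and 23037 in WT-Air and between 22008 and 24289 in WT-O3. In Nfkb1KO mice it lay between 19959 and 23302 in air and between 24072 and 25648 after O3. Chil3, a chitinase-like protein, carried most of this shift: without it the sum was 8395 to 11524 in WT-Air, 8719 to 9347 in WT-O3, 9179 to 11328 in Nfkb1KO-Air and 8697 to 10578 in Nfkb1KO-O3. Marco and Chil3 were called higher with O3 in both genotypes, whereas Adgre1, Csf1r and C1qa had lower means with O3 in both, with no call. The summed signal of 6 fibroblast markers was lower with O3, at 27947 to 30670 against 34479 to 41959 in WT mice. In Nfkb1KO mice it was 22862 to 25182 against 28597 to 33948. Pdgfra went the other way, with mean log2 signals of 12.55 in WT-O3 against 12.35 in WT-Air. In Nfkb1KO mice its means were 12.27 after O3 and 12.10 in air. The sum of 7 neutrophil markers lay between 1891 and 9187 in WT-Air, 1680 and 3781 in WT-O3, 7049 and 10117 in Nfkb1KO-Air, and 3151 and 9529 in Nfkb1KO-O3. Without Ltf, which was high in WT-Air replicate 1, it was 1554 to 1946 in WT-Air, 1242 to 1493 in WT-O3, 3026 to 3516 in Nfkb1KO-Air and 2751 to 4138 in Nfkb1KO-O3, higher in every Nfkb1KO than in every WT array. The sum of 5 endothelial markers lay lower with O3 in every array, at 24031 to 25977 against 26243 to 35641 in WT mice and 18417 to 25420 against 25481 to 28579 in Nfkb1KO mice. Among them Vwf had a higher mean log2 signal in WT-O3 (12.58) than in WT-Air (12.38). The sum of 7 T and NK cell markers was 640 to 662 in WT-O3 against 824 to 1305 in WT-Air, while in Nfkb1KO mice the ranges overlapped (816 to 1152 in air, 895 to 1376 after O3). For 3 B cell markers the sum lay between 1443 and 4597 in WT-Air, 1192 and 1929 in WT-O3, 2062 and 2933 in Nfkb1KO-Air, and 697 and 1950 in Nfkb1KO-O3. Muscle markers summed to at most 1157 in WT-O3, 2232 in Nfkb1KO-Air and 9419 in Nfkb1KO-O3. No marker lay at or under the lower limit in all 12 arrays. The sums without Chil3 and without Ltf were added after the values were seen. The part of these shifts in the differences above was not tested.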

How the data were processed

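Left lung RNA of 12 mice was measured on Affymetrix Mouse Genome 430 2.0 arrays. The deposited values were signal intensities on a linear scale, which the authors computed with MAS5 in Affymetrix Expression Console (versions not given in the sources used here). Each array had been scaled to a trimmed mean of 500. No detection calls were used, so precision is known only from the number of arrays. After 64 control probe sets were set aside, signals below 1 were raised to 1 and the log2 values were quantile normalised over the 12 arrays. Probe sets that exceeded the 20th percentile on 1 or more arrays were kept, leaving 42559. limma 3.58.1 in R 4.3.3 fitted 1 mean per group to all 12 arrays with a mean-dependent trend (lmFit, eBayes). P-values were two-sided and adjusted by Benjamini-Hochberg over all 42559 probe sets, and calls were made at an adjusted p under 0.05. The authors' methods name a t-test and two-way ANOVA in GeneSpring. The methods' t-test was run as an alternative for genotype in air. An exact test of 3 against 3 arrays cannot go below 0.1, so none was used.

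Groups came from the sample labels. Each array is 1 mouse, n is 3 arrays a group throughout, and errors (SE) are those of the fit. A member's main probe set is the kept one with the highest mean, and all members are described. Values by array are given for the called ones and for Il6, Il6ra, Il6st and Socs3. From each list, called genes were named in order of p, at most 6 a comparison. Where all arrays of a group lay at or under the 20th percentile, the fold is a lower bound ("at least"), computed with such values raised to that percentile. Of all 45101 probe sets, the annotation table gave 1 symbol for 34945, several for 932 and none for 9224. The members and gene lists were chosen with earlier results of these data known. Promoter sequences are those of RefSeq, GRCm38.p6, and 9 of 9 member gene numbers were found there. Lists of lung, neutrophil, macrophage, T and NK cell, B cell, fibroblast, endothelial and muscle markers described the tissue. Alternatives tried were other normalisations, floors, filters, weights, units of test, sample sets and leaving out each array.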

Additional observations from a re-analysis of the deposited data

How the results depend on the processing

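The 30 differences of member probe sets with an unadjusted p under 0.05 were recomputed under the alternatives, and of the 719 values 685 kept their direction and their side of the threshold, 20 lost and 14 gained a call, and 0 reversed. Of the other 75 differences, 35 changed sign under 1 or more alternatives, 19 of them with arrays centred on their medians, and 0 were called. Leaving out each array in turn gave 6 to 9 member probe sets higher with O3 in WT mice, 4 to 6 in Nfkb1KO mice and 0 in the other comparisons. For all probe sets the ranges were 31 to 109 for genotype in air, 84 to 195 after O3, 368 to 2133 for O3 in WT, 411 to 1709 for O3 in Nfkb1KO and 0 to 12 for the interaction. The lowest counts for O3 in WT and in Nfkb1KO came without WT-O3 replicate 2 and without Nfkb1KO-O3 replicate 1, and the highest for O3 in WT came without Nfkb1KO-Air replicate 1. Against 78, 174, 1375, 1527 and 8 calls in the 5 comparisons (in the order above), centring arrays on their medians gave 16, 105, 137 and 620 in the first 4, with 4 member probe sets higher in WT mice. It shifted the median of all genes to -0.20 for genotype in air, to 0.25 for O3 in Nfkb1KO mice and to 0.25 for the interaction, against -0.01, -0.01 and 0.01. The share of calls that were higher went from 64.1% to 43.8% in air, from 66.5% to 86.9% for O3 in WT and from 62.3% to 94.2% for O3 in Nfkb1KO. Over the gene lists this centring left 1 gp130 pathway gene higher with O3 in Nfkb1KO mice, and 6 STAT3-induced genes with O3 in WT mice and 1 in air. Without the mean-dependent trend the counts were 16, 73, 268, 219 and 0. Array weights gave 381 after O3, 2470 for O3 in WT and 15 for the interaction. The interaction had 15 calls without quantile normalisation, 3 with a floor of 16, 2 without a filter and 2 with the stricter filter. With 1 probe set per gene, 4 member genes were called with O3 in WT and 2 in Nfkb1KO mice; with probe sets of a gene averaged, 2 and 2 were, and all genes gave 38, 104, 524, 584 and 5. Fits on only the groups compared gave 38 in air and 357 for O3 in Nfkb1KO. Without both WT-Air replicate 3 and Nfkb1KO-Air replicate 1 the counts were 51 in air, 894 for O3 in Nfkb1KO and 4 for the interaction. The methods' t-test in air passed 2399 probe sets at an unadjusted p under 0.05 and 0 after Benjamini-Hochberg, among them 1 member higher (Il6) and 1 lower (the main Il6st probe set) before adjustment. The causes of these shifts were not tested.

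Deviations from the group means correlated at -0.05 to 0.08 between same-numbered arrays of different groups, and at -0.09 to 0.08 between other arrays. With 3 arrays a group this check cannot exclude a pairing or a shared batch. The numbers are used here as names of arrays only. With the replicate number as a replicate block, 50 probe sets were called in air and 1 for the interaction.

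With 3 arrays a group and no detection calls, signals near or under the lower limit, such as Il6 in air and 1 Lif probe set, carry only a bound or a wide error. Il11, with means under the olfactory receptor level in all groups but Nfkb1KO-O3, also had a wide error (SE 0.41).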
